A study of Sus scrofa with 6 samples.

Results

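Interferon-induced antiviral genes and interferon gamma were followed in sow ovary and uterus before and during pregnancy. The genes were chosen by name and comprise MX1, ISG15, IFIT1, IFIT2, IFIT3, RSAD2, USP18, XAF1, OAS1 and IFNG. All probe sets, the groups of short probes that report a transcript, were taken whose platform annotation gives a single gene symbol and that symbol is among the 10. This gave 17 of 24123 probe sets, of which 3, all for RSAD2, belong to the manufacturer's control probe sets. Each gene is represented by its brightest probe set, and the further probe sets are described beside it.

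The study measured 6 Affymetrix arrays, 1 each for ovary and for tissue labelled myometrium, the muscle layer of the uterus, from sows that were non-pregnant or in early or late pregnancy. No breed, day of gestation, treatment or age was used here, and the design text counts 9 pigs, 3 for each stage. The sources used here do not state whether an array held RNA of a single sow or of several. Every group therefore had 1 array, there is no replicate error, and comparisons of stages within a tissue carry no test.

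Interferons are secreted proteins that alert cells to infection. Interferons alpha and beta act through the receptor chains IFNAR1 and IFNAR2 and a complex that holds STAT2 and IRF9, which switches on antiviral genes such as MX1 and the IFIT family. Interferon gamma, made by natural killer and T cells, acts through its own receptor and induces guanylate-binding proteins and antigen presentation. In the pig, the trophoblast of the early conceptus, the outer cell layer that attaches to the uterus, also secretes interferon gamma together with interferon delta.

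Values are MAS5 signals, a linear brightness scaled to a common level on each array. A signal at or under a floor of 81.7, the 40th percentile of all signals, was taken as not measured, and a ratio with its dimmer side at the floor is a lower bound, written "at least". Between 57.4% and 61.6% of probe sets lay above the floor on each array. Hybridisation controls were brightest for the non-pregnant ovary, with a log2 deviation from the average array of 0.46, beside -0.21 to 0.07 for the remaining arrays. The GAPDH control signal at the 3' end over that at the 5' end was 2.33, 1.99 and 1.51 in ovary by stage and 1.52 to 1.70 elsewhere. By the other GAPDH control probe sets it was 4.90, 3.11 and 3.07, and 1.33, 1.19 and 1.28, in ovary, and 2.74 to 3.44, and 1.29 to 1.64, elsewhere. The ovary label fits its markers in that 7 of 10 luteal and granulosa genes were higher in ovary by limma (adjusted p under 0.05). Of 7 smooth muscle genes 0 passed in either direction, and at an unadjusted p under 0.05 limma put 4 higher in ovary and 0 lower. Over all probe sets 2.84% passed as higher in ovary and 2.23% as lower, and 11.7% and 10.2% did at the unadjusted level. The 0 of 7 passing is thus near the share over all probe sets. By contrast, 7 of 11 uterine epithelium genes passed as higher on the arrays labelled myometrium, so that tissue is called here by its label. STAR, a steroidogenic gene of the luteal list, read 13.2, 5573 and 6907 by stage on those arrays. CYP11A1 and HSD3B1 of that list read 22.1, 1502 and 4452, and 64.1, 3101 and 1822, on the same arrays. Most of the list was not measured there: of its 11 matched genes 9, 6 and 8 were at or under the floor described above.

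In ovary, all 9 interferon-induced genes read highest in the non-pregnant sow, lower in early pregnancy and lowest in late pregnancy. MX1, a GTPase that traps viral particles, was 4.33-fold lower in early pregnancy and 20.6-fold lower in late pregnancy than in the non-pregnant ovary. In tissue labelled myometrium the genes were also lowest in late pregnancy, but ISG15, RSAD2, IFIT1 and IFIT3 were highest in early pregnancy, the first pair by more than 2-fold. IFNG was measured on a single array, that of early pregnant tissue labelled myometrium, with a signal of 1719.6.

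**Figure D1:**
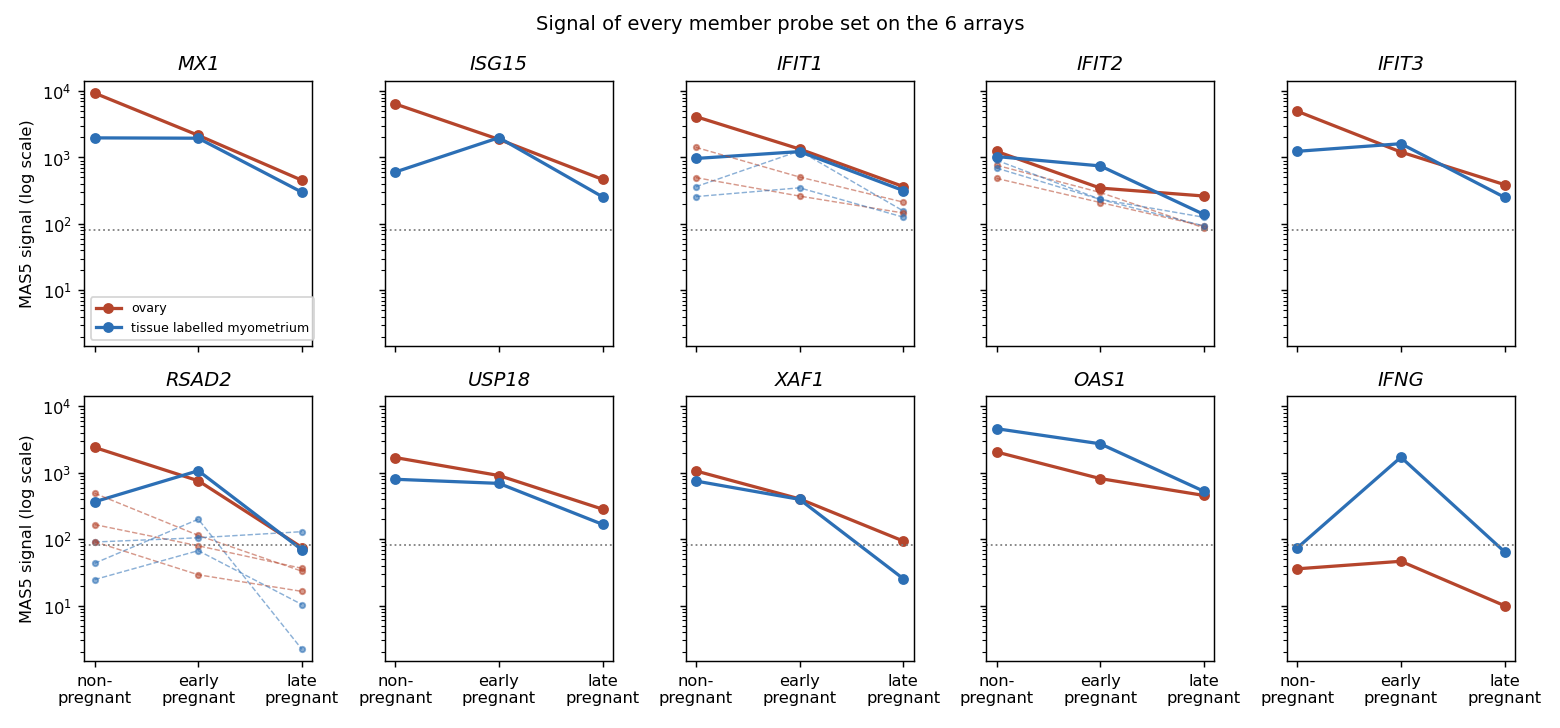
MAS5 signal (log scale) of every probe set of the 10 genes at the 3 stages, ovary in red and tissue labelled myometrium in blue. Solid lines are the brightest probe set of a gene, dashed lines the others, and the dotted line is the floor of 81.7. Ovary lines descend from left to right for 9 genes, the blue lines of ISG15 and RSAD2 peak in early pregnancy, and IFNG exceeds the floor only on the early pregnant array labelled myometrium.

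Among the direct antiviral effectors, MX1 read 9325, 2156 and 453.2 in the non-pregnant, early pregnant and late pregnant ovary. On the arrays labelled myometrium MX1 read 1974, 1951 and 299.9. The early pregnant arrays of the tissues were thus alike and the non-pregnant arrays were not, with 4.72-fold more signal in ovary. MX1 has a close relative, MX2, which lies next to it in the pig genome. MX2 read at most 111.1 on any array.

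The IFIT genes encode proteins that bind foreign RNA, and IFIT2, IFIT3 and IFIT1 are consecutive protein-coding genes in the RefSeq pig annotation (assembly Sscrofa11.1). IFIT3 read 4973, 1209 and 390.1 in ovary by stage and 1239, 1612 and 251.6 in tissue labelled myometrium. IFIT1 read 4123, 1341 and 365.4 in ovary, and 966.7, 1227 and 317.8 in tissue labelled myometrium. IFIT2 read 1236, 346.3 and 263.0 in ovary, and 1033, 746.8 and 139.0 in tissue labelled myometrium. IFIT1 and IFIT3 shared a shape, steep in ovary and slightly higher in early pregnancy on the other arrays, whereas IFIT2 was near-equal in the non-pregnant tissues. The late to early ratio of IFIT2 in ovary was small, at 1.32-fold lower.

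The further probe sets bear on IFIT1 and IFIT2. In early pregnant against non-pregnant tissue labelled myometrium, the log2 ratio of IFIT1 was 0.34 by its brightest probe set and 1.79 and 0.44 by the others. For IFIT2 it was -0.47 by the brightest and -1.95 and -1.57 by the others, so the size of the IFIT2 difference rests on the probe set read. Between late and early pregnant ovary it was -0.40 by the brightest probe set of IFIT2 and -1.77 and -1.18 by the others. Across the 6 arrays the probe sets of IFIT1 correlated pairwise at Pearson's r of 0.90 to 0.97 and those of IFIT2 at 0.85 to 0.98 on the log2 scale. These correlations share arrays and stage differences and are descriptions.

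RSAD2 encodes viperin, an enzyme that makes a chain-terminating nucleotide, and it spanned the floor. RSAD2 read 2412, 759.2 and 75.1 in ovary and 366.2, 1076 and 69.3 on the arrays labelled myometrium. Both late pregnant arrays were under the floor, so RSAD2 was at least 29.5-fold lower in late pregnant than in non-pregnant ovary and at least 13.2-fold lower in late than in early pregnant tissue labelled myometrium. Its control probe set at the 3' end read 492.3, 114.4 and 33.0 in ovary, and 43.5, 200.3 and 2.2 on the other arrays, with the same order of stages within ovary and the same peak in early pregnancy. The control probe set at the 5' end read 90.9, 105.3 and 130.1 on the arrays labelled myometrium, an order in which late pregnancy was highest. The middle control probe set exceeded the floor on 1 array only, the non-pregnant ovary at 91.8.

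OAS1, an oligoadenylate synthetase that activates the degradation of RNA, differed from the rest in its tissue order. OAS1 read 2059, 819.2 and 456.6 in ovary and 4620, 2736 and 527.0 on the arrays labelled myometrium. It was brighter on the arrays labelled myometrium at every stage, by 2.24-fold, 3.34-fold and 1.15-fold. XAF1, a pro-apoptotic protein induced by interferon, read 1068, 405.0 and 94.0 in ovary, and 752.6, 398.7 and 25.5 in tissue labelled myometrium. Late pregnant XAF1 was 11.4-fold under the non-pregnant level in ovary and at least 9.21-fold lower than in non-pregnant tissue labelled myometrium.

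ISG15 and USP18 form a modifier and its remover: ISG15 is a ubiquitin-like protein attached to other proteins, and USP18 takes it off and also dampens the interferon receptor. ISG15 read 6401, 1872 and 467.4 in ovary, and 603.9, 1988 and 255.4 on the arrays labelled myometrium. It had the widest gap between the non-pregnant tissues among the 9 genes, 10.6-fold higher in ovary, while the early pregnant arrays differed by 1.06-fold. USP18 read 1699, 910.4 and 283.7 in ovary, and 799.8, 693.6 and 167.4 in tissue labelled myometrium. USP18 did not share the early peak of ISG15 and was 1.15-fold lower in early pregnant than in non-pregnant tissue labelled myometrium.

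The 9 genes were also set against all named genes in each comparison. Between the early pregnant and non-pregnant ovary, 8 of the 9 were 2-fold or more lower and 0 higher, where 2.47% of 5466 measured genes were lower and 2.01% higher. USP18, at 1.87-fold lower, was the gene under 2-fold. The median log2 ratio of the 9 was -1.67, beside -0.08 over all genes. MX1 ranked 5 and IFIT3 ranked 6 from the lowest of 5466 genes.

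Between the late pregnant and non-pregnant ovary, all 9 genes read lower by 2-fold or more, against 3.35% of 5435 genes lower and 2.8% higher. Their median was -3.51, beside -0.06 over all genes, and the ratios ran from -4.88 for RSAD2, a bound, to -2.17 for OAS1. Interferon-induced genes took 6 of the 7 lowest ranks, with RSAD2 at 1, MX1 at 2, ISG15 at 4, IFIT3 at 5, XAF1 at 6 and IFIT1 at 7. Between the late and early pregnant ovary, which leaves out the non-pregnant array, 7 of 9 reached 2-fold lower and 0 higher, against 2.37% and 1.31% of 5405 genes. IFIT2 and OAS1, at 1.32-fold and 1.79-fold lower, were the others, and averaging the probe sets of a gene brought IFIT2 past 2-fold, to 8 of 9. The signal stepped down from non-pregnant to early to late in 9 of 9 genes and in 14 of 16 probe sets, the others being RSAD2 control probe sets under the floor in early and late pregnancy, and 20.4% of 5509 genes had this order in ovary.

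Scaling each array to its hybridisation controls, chosen after seeing that these were brighter for non-pregnant ovary, left 7 of 9 genes at 2-fold lower or more in early pregnancy and 9 of 9 in late pregnancy. Under that scaling 0.784% and 1.01% of all genes were 2-fold or more lower, and the median of all genes moved to 0.30 and 0.45. Markers of macrophages and dendritic cells were also lower in the pregnant ovary: their summed signal over 7 genes was 6865, 3670 and 3491 by stage. Without that scaling, 3 of these markers were 2-fold or more below their non-pregnant level in early and 4 in late pregnancy. Of all genes 2.47% and 3.35% were. SPI1, a myeloid transcription factor, read 250.0, 94.1 and 120.7. Between the early and the late pregnant ovary, where the interferon-induced genes had a median of -1.88, the macrophage list had a median of -0.10 and 0 of 7 markers at 2-fold. The median over all genes was 0.03 there, and the shares past that threshold were 2.37% downward and 1.31% upward. With shares that small, a count of 0 of 7 does not set the markers apart from all genes. Fewer cells of a type and less RNA per cell cannot be told apart in such tissue samples. The part of macrophages in any of the stage comparisons in ovary, late against early pregnancy included, was not tested.

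**Figure D2:**
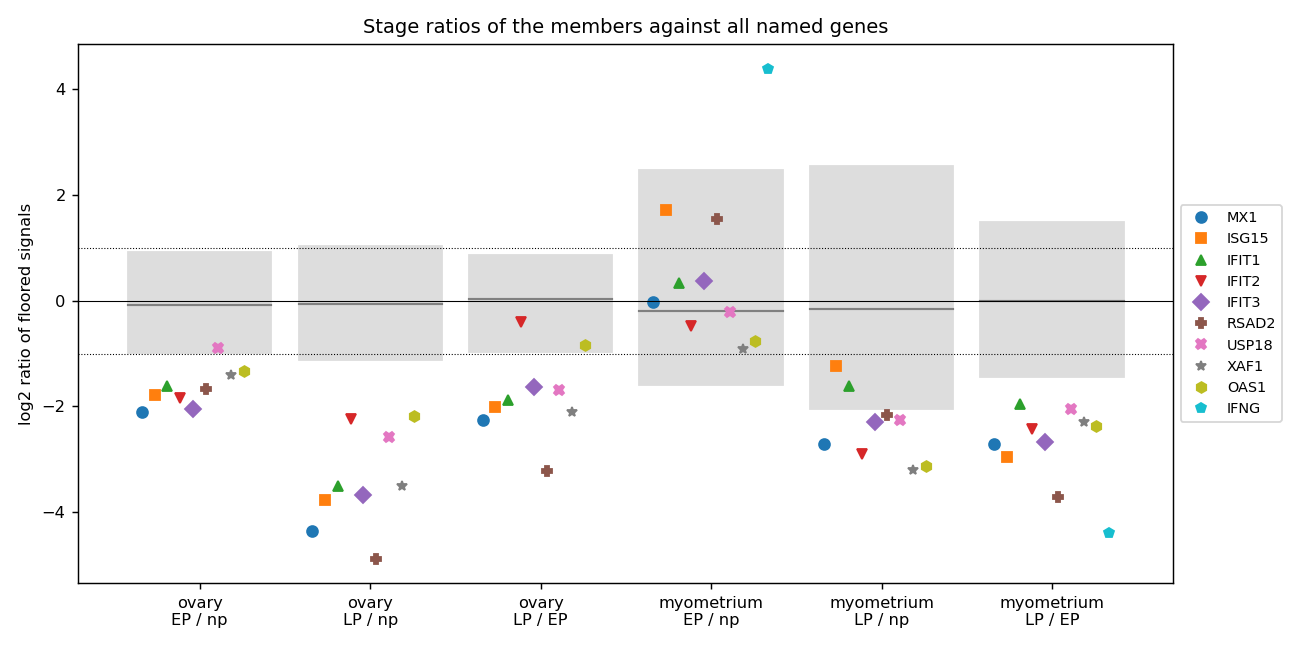
Log2 ratio of floored signals for the members (coloured symbols) in the 6 stage comparisons within a tissue, with LP for late pregnant, EP for early pregnant and np for non-pregnant. Grey boxes hold the middle 95% of all named genes measured, grey lines their median, and dotted lines mark 2-fold. In late against non-pregnant ovary the 9 symbols run from -4.88 to -2.17, under the box, while in early against non-pregnant myometrium they spread on either side of 0 and IFNG stands at 4.40.

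In tissue labelled myometrium, late pregnancy was again the stage of lowest signal. Between late and non-pregnant arrays, 9 of 9 induced genes read lower by 2-fold or more, against 13.2% of 5695 genes lower and 11.3% higher, with a median of -2.30 beside -0.16 over all genes. Between late and early pregnant arrays all 10 genes, IFNG included, were 2-fold or more lower, against 5.56% of 5613 genes lower and 5.72% higher, with a median of -2.55 beside -0.005. Late pregnancy was the lowest stage for 9 of 9 induced genes here, where 35.6% of 5755 genes were lowest at that stage, and likewise for 9 of 9 in ovary, where 33.3% were. Only 5 of the 9 stepped down from non-pregnant to early to late, against 26.4% of genes. Of the 16 probe sets other than that of IFNG, 7 had this order here and 6 were highest in early and lowest in late pregnancy. Markers of natural killer and T cells were lower in the same comparison of late with non-pregnant arrays, with 9 of 10 at 2-fold or more lower and a median of -2.30, and their part in the lower signal of the induced genes was not tested.

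In early pregnant against non-pregnant tissue labelled myometrium, ISG15 was 3.29-fold, RSAD2 2.94-fold and IFNG at least 21.0-fold higher, which makes 3 of 10 at 2-fold or more higher and 0 lower. Of 5642 genes, 9.18% were higher and 10.3% lower in this comparison. Among the other members, IFIT3 and IFIT1 were 1.30-fold and 1.27-fold higher, MX1 was 1.01-fold lower, and USP18, IFIT2, OAS1 and XAF1 were 1.15-fold to 1.89-fold lower. The members thus lay on either side of 0, unlike in ovary. ISG15 and RSAD2 were 2-fold or more lower in ovary and 2-fold or more higher in tissue labelled myometrium, a combination that 0.34% of 5296 genes showed. The difference of the change between tissues was -3.49 for ISG15 and -3.22 for RSAD2 on the log2 scale, and it was smallest for XAF1, at -0.48, among the 9. With 1 array in each group this difference could not be tested.

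**Figure D3:**
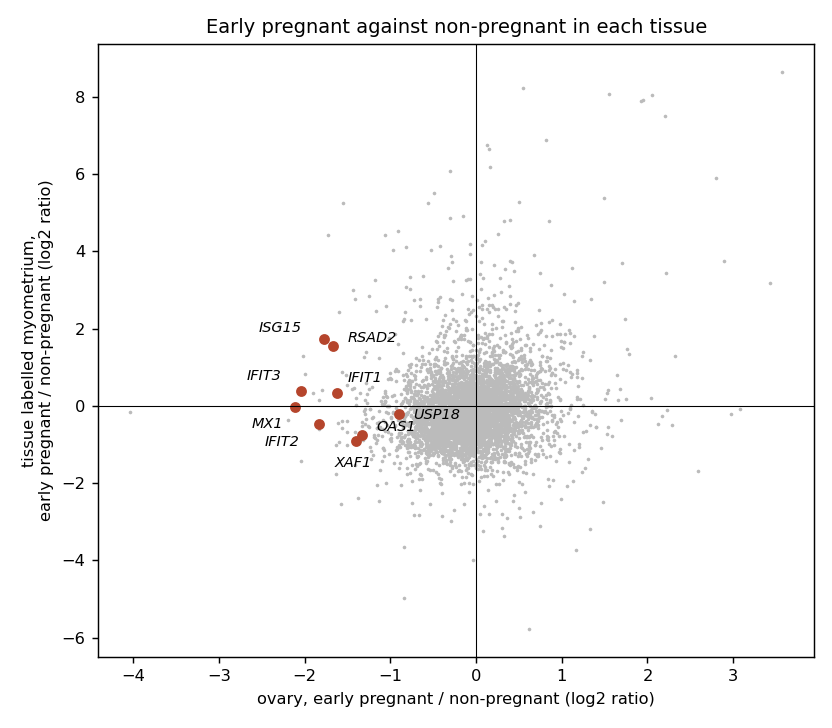
Log2 ratio of early pregnant over non-pregnant signal in ovary (horizontal axis) and in tissue labelled myometrium (vertical axis) for each named gene measured in both tissues (grey) and for 9 members (red). All 9 lie to the left of 0, from -2.11 for MX1 to -0.90 for USP18, and spread vertically from 1.72 for ISG15 to -0.92 for XAF1; IFNG was under the floor in ovary and is not plotted.

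The lower signal of late pregnancy was common to the tissues. All 9 induced genes were 2-fold or more lower in late than in non-pregnant arrays of both tissues, as were 0.812% of 5298 genes, which comes to 43 genes in all. Between late and early pregnancy 7 were 2-fold or more lower in both tissues, as were 0.498% of 5226 genes. The comparisons with a shared array are not independent of each other. Averaged over the 9 genes, log2 signal was 11.49, 9.86 and 8.08 in ovary by stage and 10.03, 10.21 and 7.64 in tissue labelled myometrium.

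No stage difference shared by the tissues passed the test. The fit was limma with tissue and stage as additive terms over the 6 arrays, with Benjamini-Hochberg adjustment over 15882 probe sets, and 0% of probe sets passed in any of the 3 stage comparisons. MX1 was lower by a log2 difference of -3.54 ± 0.53 (SE) in late than in non-pregnant arrays (limma adjusted p = 0.711, unadjusted p = 0.000627). XAF1, with -3.36 ± 0.36, had the lowest adjusted p of the 9, at 0.604. At an unadjusted p under 0.05, all 9 genes were lower in late than in non-pregnant arrays, beside 3.72% of probe sets, and all 9 were lower in late than in early pregnant arrays, beside 1.13%. Between early and non-pregnant arrays 2, XAF1 and OAS1, were lower at that level, beside 2.38% of probe sets. IFNG lay above the floor on 1 array and was not in the fit. The residual of this fit has 2 degrees of freedom and takes up whatever the stages did differently in the tissues, and ISG15 and RSAD2 had the largest standard errors among the 9, at 0.80 each.

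The tissues were compared at each stage and over all stages. On the non-pregnant arrays 6 of 9 induced genes were 2-fold or more higher in ovary and 1, OAS1, was 2-fold or more lower, against 9.11% and 8.37% of 5642 genes. On the early pregnant arrays 0 of 10 were 2-fold or more higher in ovary and 3, IFIT2, OAS1 and IFNG, were lower, against 11.4% and 10.4% of 5638 genes. On the late pregnant arrays 0 of 8 genes measured differed 2-fold, against 11.8% of 5632 genes higher and 12.2% lower, and the ratios ran from -0.21 to 0.92. The tissue gap was thus widest before pregnancy, with a median log2 ratio over the induced genes of 2.01 in the non-pregnant pair, -0.09 for early and 0.61 for late pregnancy. Over all stages, 0 of 9 passed limma in either direction, beside 2.84% of probe sets higher in ovary and 2.23% lower. At an unadjusted p under 0.05 USP18 was higher in ovary (log2 difference 0.75 ± 0.28, SE, limma adjusted p = 0.203) and OAS1 lower (-1.04 ± 0.34, adjusted p = 0.157), beside 11.7% and 10.2% of probe sets.

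IFNG, the ligand, was described on every array. It read 35.9, 46.6 and 10 in the non-pregnant, early and late pregnant ovary. For tissue labelled myometrium the values were 74.0, 1719.6 and 64.8. The 5 arrays under the floor have no order among themselves, and the early pregnant array labelled myometrium stood at least 21.0-fold above each. The order of IFNG across arrays was unlike that of the induced genes: its log2 values correlated with the mean of those 9 genes at Pearson's r of 0.23 over 6 arrays, while each induced gene correlated with the mean of the other 8 at 0.70 (OAS1) to 0.99 (IFIT3). These correlations are descriptions over the same 6 arrays, and that of IFNG rests on a single array.

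Natural killer and T cells are known sources of IFNG, and their markers were read on the same arrays. The summed signal of 11 such markers was 4419, 1644 and 762.7 on the arrays labelled myometrium by stage. On these arrays 8 of 10 measured markers were 2-fold or more lower in early pregnancy than in the non-pregnant sow, with 0 higher. Of all genes 10.3% were lower and 9.18% higher. KLRK1, an activating receptor of these cells, read 737.4, 197.2 and 57.8, and CD8A, a co-receptor of cytotoxic T cells, 550.3, 160.8 and 50.1. In ovary the summed signal was 1387 to 1682. PRF1, the pore-forming protein perforin, was under the floor on all 6 arrays. Whether natural killer and T cells gave the IFNG signal was not tested.

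Several trophoblast markers were high on the array with IFNG, and most of these were also high on the late pregnant array without it. Their sum over 14 genes was 18880, 69910 and 89880 on the arrays labelled myometrium by stage and 15310 to 22280 on the ovary arrays. On the former arrays, 7 of 14 measured markers were 2-fold or more higher in early pregnancy than in the non-pregnant sow and 2 lower. Of all genes 9.18% were higher and 10.3% lower. The median log2 ratio of the markers was 0.85. In late pregnancy 6 of 12 measured markers were 2-fold or more above their non-pregnant level and 0 below, with a median of 0.92. Of all genes 11.3% were higher and 13.2% lower in that comparison. The keratins KRT8 and KRT18, also in the uterine epithelium list, made up most of the non-pregnant sum, at 9978 and 5960, and the steroidogenic enzymes CYP19A3 and HSD17B1 most of that in non-pregnant ovary, at 8691 and 7505. On the arrays labelled myometrium PAG6, a pregnancy-associated glycoprotein, read 75.2, 22022 and 28500.2, and GATA3, a trophoblast transcription factor, 59.2, 3168 and 2778. PLET1 read 49.1, 32821 and 31638. PEG10, an imprinted placental gene, read 350.8, 435.2 and 8302, so it was highest in late pregnancy. HSD17B1 read 66.1, 544.6 and 14 on the arrays labelled myometrium and CYP19A3 39.2, 131.0 and 19. HSD17B1 and CYP19A3, named after their values were seen, were above the floor there in early pregnancy only, as IFNG was. CYP19A3 lay near that floor of 81.7. In ovary, where IFNG was under the floor, HSD17B1 read 7505, 4560 and 12061 by stage and CYP19A3 8691, 5060 and 7198. HAND1 and TFAP2C, also named after their values were seen, were above the floor in early and late pregnancy on the arrays labelled myometrium. They read 50.4, 448.8 and 873.5, and 51.7, 204.2 and 142.6. GCM1, another trophoblast factor, read at most 88.7 on any array. The part of these cells in the IFNG signal was not tested.

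**Figure D4:**
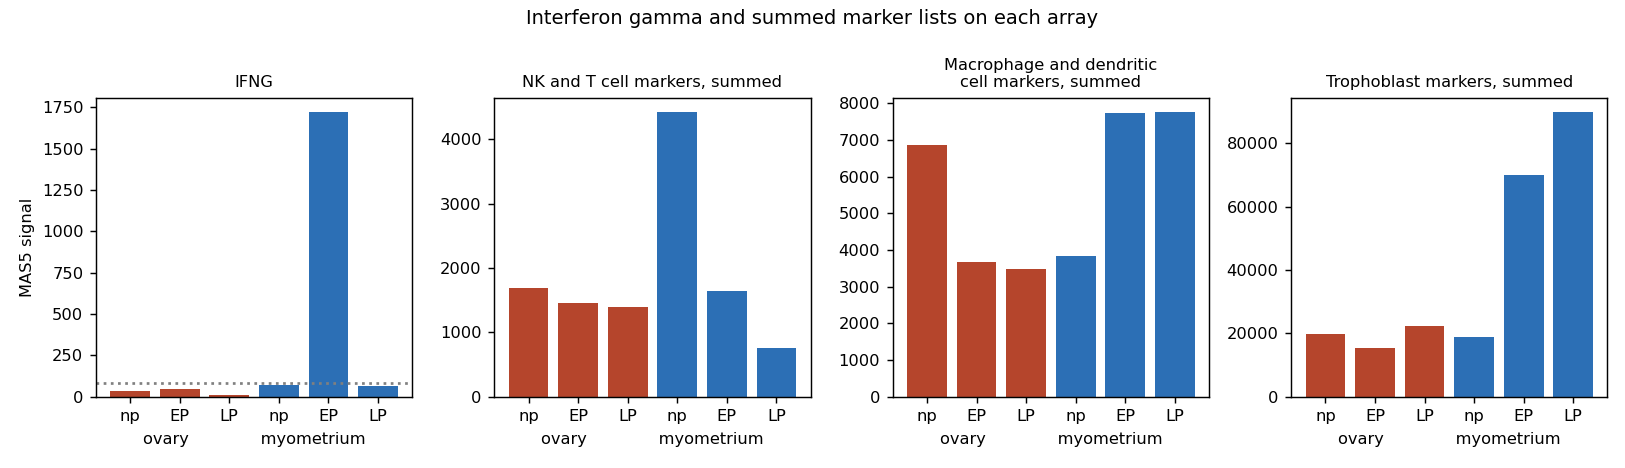
MAS5 signal of IFNG and summed MAS5 signal of 3 lists of cell type markers on each array, with np for non-pregnant, EP for early pregnant, LP for late pregnant, ovary in red and tissue labelled myometrium in blue. The IFNG bar reaches 1719.6 on the early pregnant array labelled myometrium, natural killer and T cell markers are highest at 4419 on the non-pregnant array of that tissue, and the trophoblast sum is highest on both of its pregnant arrays. The dotted line in the IFNG panel is the floor.

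The other ligands were at or near the floor. Of 9 interferon genes listed, 3 were matched to a probe set. IFNA1, an interferon alpha, read 95.9 and 84.8 on the non-pregnant and early pregnant arrays labelled myometrium and at most 66.7 elsewhere, and IFNB1, interferon beta, read at most 18.5. Interferon delta had no matched probe set and was not analysed here.

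Receptors and signal transducers differed less than the induced genes. Of 13 measured genes, 2 read lower by 2-fold or more and 0 higher in late than in non-pregnant ovary, beside 3.35% of all genes lower. They were IRF9 and STAT2, partners in the complex that activates antiviral genes. IRF9 read 644.9, 492.7 and 155.1 in ovary, and 419.6, 232.2 and 147.4 in tissue labelled myometrium. STAT2 read 690.6, 495.2 and 305.2 in ovary, and 353.6, 341.2 and 309.0 in tissue labelled myometrium. In late against non-pregnant tissue labelled myometrium 4 of 13 were 2-fold or more lower, IRF9 with IFNAR1, IL10RB and PTPN6, and 0 higher. Of all genes 13.2% were lower and 11.3% higher in that comparison. IFNAR1 read 1030, 417.4 and 365.2 in tissue labelled myometrium.

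SOCS1, an inhibitor of interferon signalling that interferon gamma induces, read 66.2, 464.6 and 110.7 on the arrays labelled myometrium and 109.6 to 174.0 in ovary. It was at least 5.69-fold higher in early pregnant than in non-pregnant tissue labelled myometrium. In its list this was 1 gene of 13 at 2-fold or more higher, with 1 lower, beside 9.18% and 10.3% of all genes. SOCS1 thus peaked on the same array as IFNG.

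Genes induced mainly by interferon gamma did not share that peak as a list. In early pregnant against non-pregnant tissue labelled myometrium, 0 of 18 were 2-fold or more higher and 3 lower, with a median log2 ratio of -0.48 beside -0.19 over all genes, of which 10.3% were 2-fold or more lower. The 3 were PSME1, PSMB8 and PSMB10, subunits of the immunoproteasome and its activator, which were 2.60-fold, 2.27-fold and 2.07-fold lower. GBP2, a guanylate-binding protein, read 256.9, 397.6 and 84.7. In late against non-pregnant tissue labelled myometrium 12 of 18 were 2-fold or more lower and 1, ICAM1, was higher, with a list median of -1.60. Of all genes 13.2% were lower and 11.3% higher. The rule for named genes did not pick ICAM1, which was named after its values were seen. In late against non-pregnant ovary only 1 of 17, GBP1, was 2-fold or more lower, beside 3.35% of all genes, with a median of -0.41. GBP1 read 1973, 2658 and 947.3 in ovary, and 1887, 1673 and 435.0 in tissue labelled myometrium.

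The remaining interferon-induced antiviral genes were also lower in late pregnancy, with medians nearer 0 than those of the 9 genes. Of 48 listed, 18 were matched and 16 measured. In late against non-pregnant arrays 9 of 16 were 2-fold or more lower in ovary (median -1.24), beside 3.35% of all genes. In tissue labelled myometrium 8 of 16 were (median -0.98), beside 13.2% of all genes, and 0 were higher in either tissue. In early against non-pregnant ovary 4 of 16 were 2-fold or more lower (median -0.84), beside 2.47% of all genes. On the other arrays the same comparison gave 2 of 15 lower and 0 higher (median -0.47), near the 10.3% of all genes lower. Of the 9 genes 2 were higher and 0 lower there, or 1 lower, IFIT2, with averaged probe sets. Such small counts do not set the lists apart. PLAC8 read 2823, 708.5 and 333.8 in ovary, and 409.9, 722.3 and 286.6 in tissue labelled myometrium, an order of stages shared with ISG15 and RSAD2. EIF2AK2, a kinase that halts translation on foreign RNA, read 2396, 1294 and 843.6 in ovary, and 1645, 785.8 and 377.7 in tissue labelled myometrium. PARP9 and its partner DTX3L were 2.57-fold and at least 3.47-fold lower in late than in non-pregnant ovary, and PARP12 was 3.10-fold lower.

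Sensors and regulatory factors were few on the array. DDX58, which encodes the RNA sensor RIG-I, read 897.5, 468.0 and 201.3 in ovary and 355.8, 694.0 and 154.2 in tissue labelled myometrium, so it was lowest in late pregnancy in both tissues and highest in early pregnancy in the latter. ZBP1, a sensor of nucleic acids, read 433.0, 121.4 and 56.2 in ovary, and 134.9, 148.5 and 10 in tissue labelled myometrium. IRF7, the factor that amplifies interferon production, read 263.8, 107.6 and 16 in ovary, and 121.1, 134.3 and 83.6 in tissue labelled myometrium. In ovary TBK1, a kinase below the sensors, and MAVS, the adaptor of RIG-I, did not follow this order. They read 1465, 1493 and 1626, and 97.8, 153.3 and 167.6, by stage. In tissue labelled myometrium TBK1 read 1257, 1910 and 1098, the order of stages of DDX58 there, and MAVS read 201.8, 311.8 and 245.4. Of 5 regulatory factors, 1, IRF7, was 2-fold or more lower in early than in non-pregnant ovary, beside 2.47% of all genes. With averaged probe sets 0 were. The list median was -0.13, beside -0.08 over all genes. In ovary by stage IRF1 read 436.3, 574.1 and 506.4, and IRF8 280.3, 366.2 and 242.5. IRF2 read 534.7, 489.9 and 331.0 there, and IRF3 684.1, 515.0 and 462.7. In tissue labelled myometrium IRF1 read 793.4, 511.5 and 348.8, and IRF8 414.7, 149.7 and 62.9. IRF2 read 616.8, 548.2 and 550.5 in that tissue, and IRF3 395.9, 776.8 and 376.4. From non-pregnant to late pregnancy 2 of 5, IRF1 and IRF8, were 2-fold or more lower in that tissue and 0 higher. Of all genes 13.2% were lower and 11.3% higher.

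Among inducers of IFNG, IL18 read 528.6, 1488 and 712.8 on the arrays labelled myometrium and 706.1 to 812.9 in ovary. It was 2.81-fold higher in early pregnant than in non-pregnant tissue labelled myometrium, on the array where IFNG was measured. IL15 read 455.8, 196.9 and 132.7 on the same arrays, and IL12A and IL12B were under the floor on all 6 arrays. In each pathway list, 0 genes passed limma in any of the 4 contrasts of tissue and stage. At an unadjusted limma p under 0.05, 7 of 16 other interferon-induced genes and 8 of 18 induced by interferon gamma were lower in late than in non-pregnant arrays. So were 3 of 13 receptors and transducers, 2 of 4 sensors, 1 of 5 regulatory factors, 1 of 3 inducers and 0 of 1 ligands. Of all probe sets 3.72% were lower at that level. In these lists 0 genes were higher.

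**Figure D5:**
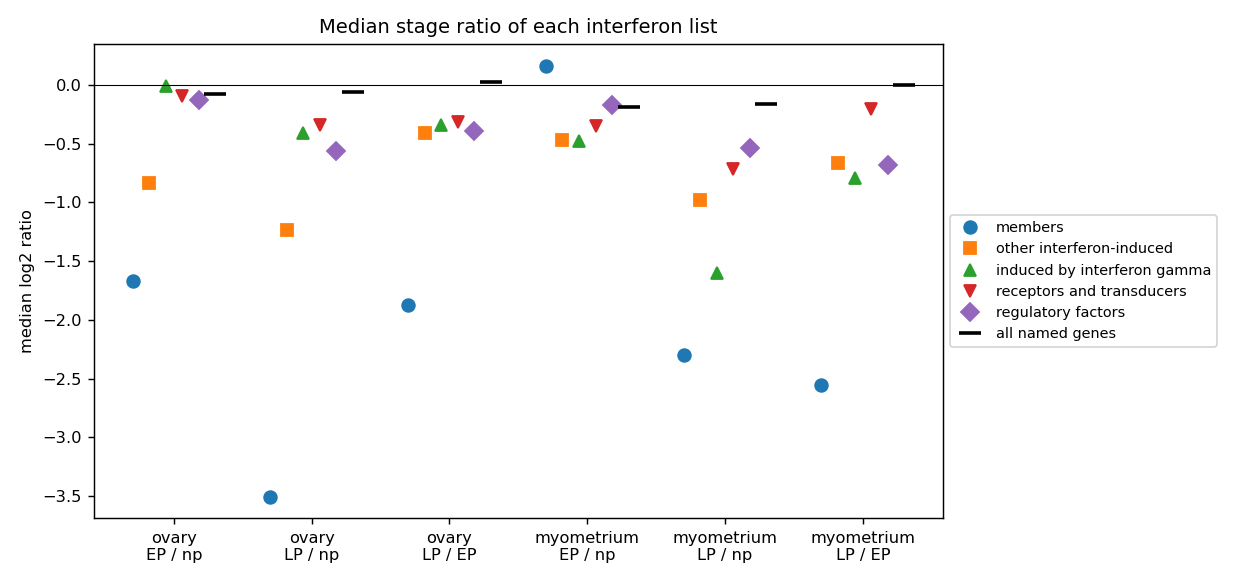
Median log2 ratio of the members and of 4 pathway lists (other interferon-induced genes, genes induced by interferon gamma, receptors and transducers, regulatory factors) in the 6 stage comparisons within a tissue, beside the median over all named genes (black bars); EP, LP and np stand for early, late and non-pregnant. The members have the lowest median in each comparison but early against non-pregnant myometrium, where theirs, at 0.16 with IFNG included, is the highest of the lists drawn, which leave out sensors and ligands.

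The genes most like the induced members across the 6 arrays were taken by Pearson's r with the mean of the 9 genes, among 3010 named genes with a log2 range of at least 1. The 8 highest were SRFBP1, NDP, TBC1D22A, DDX58, RSF1, SLX1A, PARP12 and SULT1A3, with r of 0.98 to 0.95. Of these DDX58 and PARP12 were in the interferon lists. RSF1, a chromatin remodelling factor, read 11131, 6398 and 2686 in ovary, and 8865, 5634 and 2116 in tissue labelled myometrium. For IFNG the 8 were FXYD2, ZFP42, ASCL2, TUSC3, GJB5, RTN4IP1, TMEM254 and SERPINB7, with r of 0.995 to 0.97, all set by the early pregnant array labelled myometrium. SERPINB7 read 143.7, 3598 and 186.1 on the arrays of that tissue and at most 70.8 in ovary.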

How the data were processed

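Per the labels' protocols, tissue was frozen in liquid nitrogen, RNA was extracted with Trizol and 6 ug was labelled for Affymetrix arrays. The deposited intensity values are MAS5 signals on a linear scale, per the submitters' processing notes; their version was not stated in the sources used here. The mean after trimming 2% of values at each end was 500.1 on every array. The 124 control probe sets were left out of the fit, which was made with limma 3.58.1 in R 4.3.3 on log2 of the floored signal, over probe sets that exceeded the floor on 2 or more arrays, with an intensity trend, and checked on simulated data. Arrays of other stages or tissues stood in for replicates, so p-values measure the spread between arrays and not between animals.

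Gene symbols came from the platform annotation, and 0 changed when checked against RefSeq gene identifiers. The 6567 named genes were each represented by the brightest probe set. Lists of pathway genes and cell type markers, and the members, were chosen with earlier results of these data known. Named genes were all members, up to 6 genes of each pathway list and 4 of each marker list by the largest absolute ratio, and the 8 most alike genes for each profile. IL12A, IL12B, PRF1, MX2, IFNB1, GCM1, KRT8, KRT18, CYP19A3, HSD17B1, HAND1, TFAP2C and ICAM1 were named in addition, after their values were seen. Alternatives were floors at the 25th (33.7) and 60th (246.2) percentile, a pseudocount of 16, quantile normalization, median centring, averaged probe sets, other filters, no trend, no block and leaving out a stage, and, added after seeing the data, scaling to the hybridisation controls. No sequences of probes, promoters or proteins were used here, and a planned promoter motif search was not run. Python 3.11.15 with numpy 2.4.6 and pandas 2.3.3 computed the ratios.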

Additional observations from a re-analysis of the deposited data

Results flagged for a closer look

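Several genes had stage ratios of opposite sign in the tissues. With 1 array in each group, these differences between tissues were not tested. The difference of the early against non-pregnant log2 ratio, ovary minus tissue labelled myometrium, was -3.49 for ISG15, -3.22 for RSAD2, -2.42 for IFIT3 and -1.96 for IFIT1. Among marker genes, the same difference was -6.81 for ACP5 and -5.49 for SPP1, which are secreted by uterine glands. For late against non-pregnant arrays it was -7.55 for ACP5, -6.36 for SPP1 and -5.96 for PEG10, an imprinted placental gene. For late against early pregnant arrays it was -2.63 for the muscle filament gene DES.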

How the results depend on the processing

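No paired analysis was possible because each group has 1 array and no replicate numbers, although the tissue comparison has stage as a block. Of the counts of members at 2-fold or more, 83 of 84 values under the alternatives stayed within 1.5 times the reported count. The other is the count of members lower in early than in non-pregnant tissue labelled myometrium, which was 0 as reported and 1, IFIT2 at -1.33, when the probe sets of a gene were averaged. The sign of a member's log2 ratio was kept in 391 of 392 values, the exception being MX1 in early against non-pregnant tissue labelled myometrium, reported at -0.02 and at 0.13 with each array centred on its median. With the floor at the 60th percentile the bounds shrank, to -3.29 for RSAD2 in late against non-pregnant ovary and 2.80 for IFNG in early against non-pregnant tissue labelled myometrium. At that floor RSAD2 in late against non-pregnant tissue labelled myometrium came to -0.57, XAF1 in late against early pregnancy to -0.72 in ovary and -0.70 in tissue labelled myometrium, all under 2-fold, so the counts of 9, 7 and 10 lower became 8, 6 and 9. No member passed the limma threshold under the alternative fits, which says nothing of stability, since 0 probe sets of any kind passed a stage comparison in the fit reported. Over all probe sets, the counts between tissues were 451 higher in ovary and 354 lower, and 0 and 0 with no filter on low signals or without the early pregnant arrays, 138 higher without the non-pregnant arrays, 109 and 118 without the late pregnant arrays, 715 higher without the stage block, 220.0 lower with probe sets above the floor on all 6 arrays, and 298 and 179 with the floor at the 60th percentile. With no filter on low signals, 1 probe set was higher and 3 lower in early than in non-pregnant arrays and 3 were lower in late than in non-pregnant arrays, where 0 had passed. With averaged probe sets, the 1 regulatory factor 2-fold or more lower in either pregnant ovary, and the 1 receptor or transducer so in late against early tissue labelled myometrium, became 0, the count of sensors lower in early pregnant ovary went from 1 to 2 and that of interferon gamma inducers lower in late against early tissue labelled myometrium from 2 to 1. Signals near the floor, as for XAF1 and RSAD2 in late pregnancy, limit the size of a ratio.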
